A study of Mus musculus with 3 samples.

Results

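The insulin-like growth factor (IGF) family was followed in cultured tendon derived stem cells through 10 genes, 2 ligands (Igf1 and Igf2), 2 receptors (Igf1r and Igf2r) and 6 binding proteins (Igfbp2 to Igfbp7). They were chosen by name, with earlier results of these data known, and matched by gene ID. All 10 of 10 were found among the 16621 genes listed in at least 1 library. Poly(A) RNA came from tail tendon progenitors of 10-week C57BL/6 mice, grown in low-glucose medium with serum and collected untreated at passage 4, once the dish was confluent. There was 1 library of wild-type cells (WT) and 2 of cells carrying the ΔF508 mutation of the chloride channel gene Cftr (DF508 replicates 1 and 2). No label ties the DF508 libraries to different animals or dishes, so the p-values rest on a spread that may be technical. The single WT library was assumed to vary as much as the DF508 pair.

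Igf1 and Igf2 are small secreted ligands that promote growth and survival. Both signal through Igf1r, a receptor tyrosine kinase that acts through insulin receptor substrates, PI3K and AKT and through the MAP kinases, while Igf2r (the cation-independent mannose 6-phosphate receptor) takes up Igf2 and carries it to lysosomes. The binding proteins hold the ligands outside the cell, extend their life and limit or deliver them to the receptor, and proteases such as pappalysin release them again. In tendon, Igf1 is known to stimulate the division of tendon fibroblasts and their collagen synthesis.

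The libraries held 5298326 (WT), 5241826 and 5246886 (DF508 replicates 1 and 2) estimated counts. The limit set by a 0 is 3 counts, or 0.566 to 0.572 CPM (counts scaled to the library total). All 10 tendon fibroblast markers were listed in every library, among them Col1a1, Thbs4 and the tendon gene Tnmd (92.7 CPM in WT, 109 and 192 CPM in DF508). The tendon transcription factor Scx was low, at 3.02 CPM in WT and 2.10 and 2.48 CPM in DF508. Of the 10, 6 were above WT in both DF508 libraries and 3 below, Scx, Mkx and Thbs4. Of 12 myeloid markers 11 were above WT in both DF508 libraries, with a summed level of 91.9 CPM in WT, 142 CPM in DF508 replicate 1 and 647 CPM in replicate 2. All 11 cycling markers were above WT in both, with sums of 493, 866 and 999 CPM. In these bulk libraries, fewer cells of a type and less RNA per cell cannot be told apart.

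These cells contained far more binding protein transcript than ligand transcript. On the FPKM scale, which divides by gene length and library size and so allows levels to be set against each other between genes, Igfbp4 stood highest in all 3 libraries, with 2900 FPKM in WT and 2535 and 2952 FPKM in DF508 replicates 1 and 2. That placed it 7th, 8th and 4th among all genes listed in these libraries. Igfbp4, which in most settings restrains IGF action and is a substrate of pappalysin, made up 83.4% of the summed FPKM of the 6 binding proteins in WT, 79.1% in DF508 replicate 1 and 81.6% in replicate 2. The summed FPKM of the 6 binding proteins was 1140 times that of Igf1 in WT, 1490 times in DF508 replicate 1 and 838 times in replicate 2. Transcript levels do not give the amount of secreted protein.

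The order of the other members by FPKM was stable in blocks. Igfbp2, Igfbp3 and Igfbp7 formed the second block, between 129 and 265 FPKM over the 3 libraries, and changed places among themselves, so that Igfbp3 led in WT, Igfbp2 in DF508 replicate 1 and Igfbp7 in replicate 2. Igfbp6 followed at 79.8 to 88.3 FPKM without overlap with that block. The receptors came next, with Igf2r at 19.1 to 24.5 FPKM and Igf1r at 19.9 to 22.2 FPKM, and were not separated from each other by more than their spread. Below them stood Igfbp5 at 8.28 to 10.0 FPKM, Igf1 at 2.15 to 4.32 FPKM and Igf2 at 0.21 to 0.36 FPKM, in that order in all 3 libraries.

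**Figure D1:**
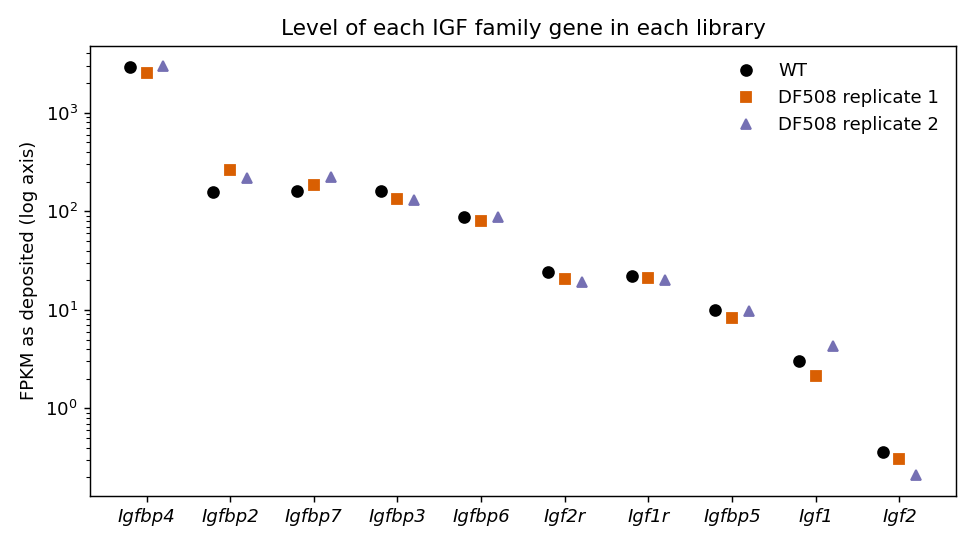
FPKM as deposited (log axis) of the 10 IGF family genes, ordered by their mean, with 1 point for each library and no error bars. Igfbp4 stands at 2535 to 2952 FPKM, Igf1 at 2.15 to 4.32 FPKM and Igf2 at 0.21 to 0.36 FPKM.

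The comparison of DF508 with WT asked whether the mutation goes with a different level of these genes. None of the 9 members that could be tested passed the threshold in either direction, an adjusted p under 0.05 (Benjamini-Hochberg, over 12888 genes) in edgeR's quasi-likelihood test, where 0.489% of all genes tested were called higher and 0.9% lower in DF508, 1.39% in all. At an unadjusted p under 0.05 there were 3 members (Igfbp2 above WT, Igf2r and Igfbp3 below), beside 5.86% of all genes tested above WT and 6.08% below, 11.9% in all. The 9 fitted log2 fold changes lay between -0.35 and 0.57 with a median of -0.12, and the median over all genes tested was 0.01. By CPM 2 of the 9 were above WT in both DF508 libraries and 5 below, where 43.5% and 29.6% of all genes tested were so placed. A WT group of 1 library and a DF508 group of 2 allow no exact permutation p below 0.333 for a single gene.

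Among the ligands, Igf1 had 100 counts in WT, 62 in DF508 replicate 1 and 162 in replicate 2, or 18.9, 11.8 and 30.9 CPM. The DF508 libraries therefore lay on opposite sides of WT, and they were further apart from each other than either was from WT. Replicate 1 was at 0.627 times WT (exact 95% Poisson interval 0.449 to 0.869) and replicate 2 at 1.64 times WT (1.27 to 2.12). Replicate 2 had 2.61 times the CPM of replicate 1 (1.94 to 3.56). These intervals, here and below, cover counting error only. The fitted log2 fold change was 0.13 ± 0.45 (SE), with a 95% interval of -0.88 to 1.15 and an adjusted p of 0.945 in edgeR's quasi-likelihood test. Without DF508 replicate 2 the log2 fold change was -0.72 and without replicate 1 it was 0.66, so the direction rests on which DF508 library is read.

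Igf1 is also made by macrophages, and its values can be set beside the myeloid markers. DF508 replicate 2 had both the highest Igf1 and the highest myeloid sum, with the macrophage receptor Csf1r at 43.1 CPM against 6.04 CPM in WT and 8.78 CPM in replicate 1. In DF508 replicate 1 the orders parted, since the myeloid sum was above WT (142 against 91.9 CPM) and Igf1 was below it. Most of that sum was Lyz2, at 59.3 CPM in WT and 85.25 CPM in replicate 1, and some of its reads also match elsewhere. Over the 12 markers the median log2 ratio of replicate 1 to WT was 0.79, with 0.5 CPM added to each value. In replicate 1, Cd68 was at 8.39 against 4.72 CPM in WT, Adgre1 at 9.16 against 3.21 and Fcer1g at 5.34 against 1.89. None of these was marked as sharing reads. Only Ptprc was below WT in replicate 1 (1.72 against 2.08 CPM), and C1qa had 14 counts in both libraries. The part of myeloid RNA in the Igf1 level was not tested.

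**Figure D2:**
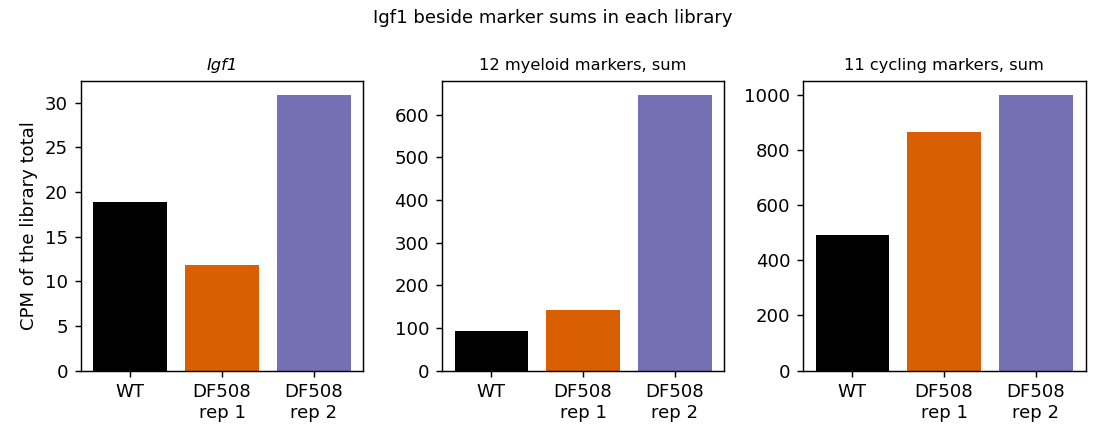
CPM of Igf1 (left), the summed CPM of 12 myeloid markers (middle) and the summed CPM of 11 cycling markers (right), with 1 bar for each library and an axis of its own in each panel. Igf1 is lowest in DF508 replicate 1 at 11.8 CPM, while both marker sums are lowest in WT.

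The size of the Igf1 difference depended on the unit. The gene length that RSEM used for Igf1, a mean over its transcripts weighted by their estimated abundance, was 6117 bases in WT, 5466 bases in DF508 replicate 1 and 7087 bases in replicate 2. Replicate 2 over replicate 1 was accordingly 2.61 by CPM and 2.01 by FPKM. For 8 of the other 9 members the length was the same in all 3 libraries, and for Igfbp7 it was 1120 bases in WT and DF508 replicate 1 and 1121 bases in replicate 2.

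Igf2, the ligand of fetal growth that is expressed from the paternal allele, was barely detected. It had 7 counts in WT, 6 in DF508 replicate 1 and 4 in replicate 2, or 1.32, 1.15 and 0.762 CPM, and did not reach the count needed for the test. The ratio to WT was 0.866 (interval 0.241 to 3.01) in replicate 1 and 0.577 (0.124 to 2.27) in replicate 2, so a difference was not detectable at this depth. H19, the maternally expressed noncoding RNA of the same imprinted domain, had 6, 22 and 16 counts and an adjusted p of 0.422 in the same edgeR test. Ins2, the gene after Igf2 on chromosome 7 in the RefSeq order, was listed in no library.

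Both receptors lay slightly below WT in both DF508 libraries. Igf2r was at 221 CPM in WT, 185 CPM in DF508 replicate 1 and 173 CPM in replicate 2, a mean of 179 ± 8.84 CPM (SD, n = 2). The WT library was above both DF508 libraries by more than the gap between them, with a log2 fold change of -0.35 ± 0.10 (SE), a 95% interval of -0.59 to -0.11 and an edgeR adjusted p of 0.199. Airn, a noncoding RNA that overlaps part of Igf2r on the opposite strand, had 23, 15 and 16 counts against 1172, 971 and 906 for Igf2r. The estimates of both genes were whole in every library, so neither was marked as sharing reads. No source used here states that strand was used in counting, so it is not known whether reads from any shared stretch were assigned by strand.

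Igf1r, the signalling receptor, was at 269 CPM in WT, 256 CPM in DF508 replicate 1 and 241 CPM in replicate 2. Here WT was above both DF508 libraries, though replicate 1 was nearer to WT than to replicate 2. The ratio to WT was 0.954 (interval 0.885 to 1.03) in replicate 1 and 0.898 (0.832 to 0.97) in replicate 2, so counting error covers the difference from WT in replicate 1 and not in replicate 2. The log2 fold change was -0.15 ± 0.10 (SE) with an edgeR adjusted p of 0.624. Igf1r is the one member whose estimate was not whole: some of its reads also match elsewhere, and its level is uncertain. The ratio of Igf1r to Igf2r by FPKM was 0.906 in WT and 1.03 and 1.04 in the DF508 libraries.

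Of the binding proteins, Igfbp2 had the highest fold change. Igfbp2, which carries an integrin-binding motif beside its IGF-binding domains, was at 208 CPM in WT, 351 CPM in DF508 replicate 1 and 288 CPM in replicate 2, a mean of 319 ± 44.6 CPM (SD, n = 2). Both DF508 libraries were above WT, and the gap from WT to the lower of them was larger than the gap between them. The ratio to WT was 1.69 (interval 1.56 to 1.82) in replicate 1 and 1.38 (1.28 to 1.5) in replicate 2. The fitted log2 fold change of 0.57 ± 0.13 (SE), 1.49-fold higher, had a 95% interval of 0.27 to 0.88 and an adjusted p of 0.0967 in edgeR's quasi-likelihood test. It ranked 299th by p among 12888 genes. Only edgeR's likelihood ratio test, among the alternatives run, put it past the threshold (adjusted p = 0.015), and the adjusted p over the alternatives ranged from 0.015 to 0.662.

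Igfbp5, the gene next to Igfbp2 on chromosome 1 in the RefSeq order and the binding protein known for its affinity for extracellular matrix, did not have the values of its neighbour. It was at 59.3 CPM in WT and at 48.8 and 57.8 CPM in the DF508 libraries, with a log2 fold change of -0.20 ± 0.14 (SE) and an edgeR adjusted p of 0.649. Its DF508 libraries were both below WT, but replicate 2 was within counting error of it (ratio 0.974, interval 0.829 to 1.14). The difference between Igfbp2 and Igfbp5 in their fold changes was not tested.

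Igfbp3, the main IGF carrier of the circulation, was at 398 CPM in WT and at 329 and 318 CPM in the DF508 libraries, a mean of 323 ± 8.06 CPM (SD, n = 2). The DF508 libraries stood close together and both below WT, with a log2 fold change of -0.34 ± 0.10 (SE), a 95% interval of -0.56 to -0.12 and an edgeR adjusted p of 0.176. Igfbp1, the gene before it on chromosome 11, was listed in no library. The FPKM of Igfbp2 was 0.97 times that of Igfbp3 in WT, 1.98 times in DF508 replicate 1 and 1.68 times in replicate 2. This ratio within a library, which does not depend on the scaling between libraries, was chosen after its values were seen and was not tested.

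Igfbp7, a secreted protein with low affinity for IGFs that is also found in vessel walls, was at 178 CPM in WT, 203 CPM in DF508 replicate 1 and 245 CPM in replicate 2. Both DF508 libraries were above WT, but replicate 2 was further from replicate 1 than replicate 1 was from WT. The log2 fold change was 0.29 ± 0.13 (SE) with a 95% interval of -0.01 to 0.58 and an edgeR adjusted p of 0.435. Of 9 smooth muscle and pericyte markers 7 were above WT in both DF508 libraries and 1 below, with a summed level of 1120 CPM in WT and 1980 and 1950 CPM in DF508. Much of that sum was Acta2, at 410.5 CPM in WT and 1072 and 1020 CPM in DF508, and some of its reads also match elsewhere. Of the 8 markers tested, 4 were called higher and 0 lower in edgeR's quasi-likelihood test. Over all genes tested the shares were 0.489% and 0.9%. Beside Acta2 these were Cnn1 (edgeR adjusted p = 0.00335), Tagln (0.0112) and Lmod1 (0.0222), and of them only Acta2 was marked as sharing reads. The marker below WT in both was Pdgfrb, at 477.3 CPM in WT and 442.4 and 419.5 CPM in DF508. Of 6 endothelial markers Pecam1, Cdh5, Emcn and Cldn5 were listed in no library, Kdr had 1 count in WT and 1 in DF508 replicate 2, and Tek was at 14.5 CPM in WT and 13.2 and 12.4 CPM in the DF508 libraries. The part of smooth muscle or pericyte RNA in the Igfbp7 level was not tested.

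Igfbp4 and Igfbp6 differed least from WT among the binding proteins. Igfbp4 had 31690, 27392 and 31946 counts, or 5981, 5226 and 6089 CPM. One DF508 library was thus below WT and the other just above it. With counts of this size counting error was small, as the ratio to WT was 0.874 (interval 0.860 to 0.888) in replicate 1 and 1.02 (1.00 to 1.03) in replicate 2, and the DF508 libraries differed from each other 1.17-fold (1.15 to 1.18). The fitted log2 fold change was -0.12 ± 0.09 (SE), with a 95% interval of -0.34 to 0.09 and an edgeR adjusted p of 0.677.

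Igfbp6, a binding protein that prefers Igf2, was at 114, 103 and 113 CPM, with a log2 fold change of -0.12 ± 0.11 (SE), a 95% interval of -0.38 to 0.14 and an edgeR adjusted p of 0.751. The 6 binding proteins together took 0.694% of all counts in WT, 0.626% in DF508 replicate 1 and 0.711% in replicate 2. On FPKM their sum without Igfbp4 was 579 in WT and 671 and 667 in the DF508 libraries.

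**Figure D3:**
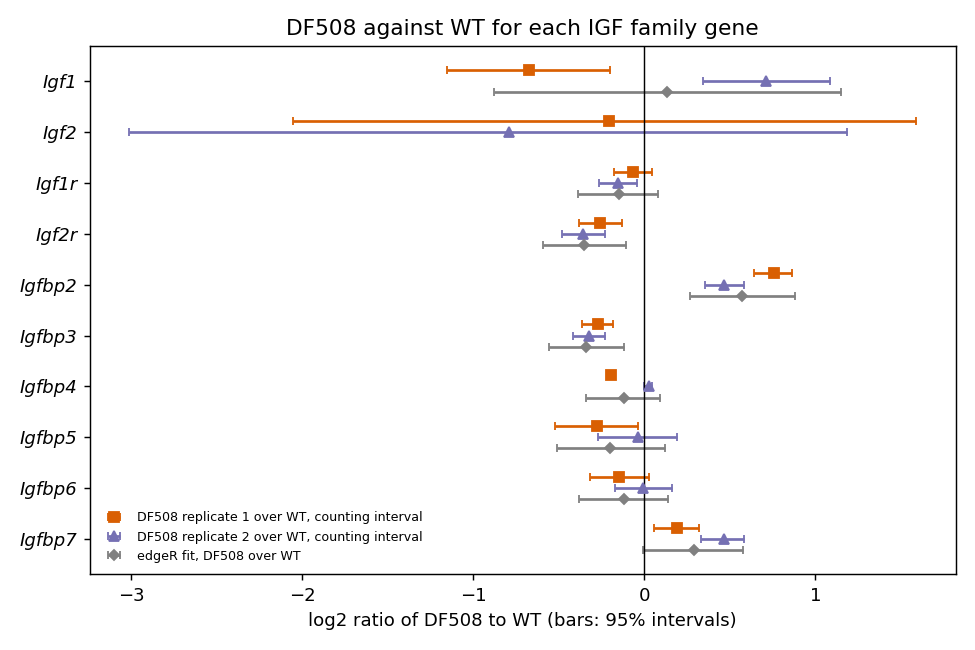
Log2 ratio of DF508 to WT for the 10 genes. Squares and triangles are DF508 replicates 1 and 2 over WT by CPM with exact 95% Poisson intervals for counting error. Diamonds are edgeR's fitted fold changes with 95% intervals. These combine the gene's own spread between the DF508 libraries (1 residual degree of freedom) with a spread estimated over all genes (7.72 prior degrees of freedom). Igf1 has its DF508 libraries on opposite sides of WT (0.627 and 1.64 times), Igfbp2 has both above it (1.69 and 1.38 times), and Igf2 has no fitted value.

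Beyond the family itself, the genes that control IGF supply and carry its signal were read from 7 lists with 98 genes, of which 91 could be tested. None was called higher and 3 were called lower in DF508, all 3 in 2 of the lists, where 0.489% and 0.9% of all genes tested were called. At an unadjusted p under 0.05 in edgeR's quasi-likelihood test there were 10 of the 91, near the share of 11.9% over all genes tested. The median log2 fold change over the 91 was -0.01, beside 0.01 over all genes tested.

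Of the 14 receptor substrates and adaptors tested 1 fell, Socs3, a cytokine-induced inhibitor that also dampens insulin receptor signalling. Socs3 was at 142 CPM in WT and at 76.5 and 74.3 CPM in the DF508 libraries, 1.94-fold lower (log2 fold change -0.96 ± 0.10 SE, edgeR adjusted p = 0.00813). The adaptors of the receptor themselves, Irs1, Grb2, Shc1 and Gab1, did not pass, with log2 fold changes of 0.17, 0.06, -0.04 and -0.01. These 4 were named after their values were seen, as was Irs2, at 30.6, 21.0 and 14.9 CPM with an adjusted p of 0.181.

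Of 17 FoxO factors, which AKT is known to keep out of the nucleus, and their targets, 2 fell and 15 did not pass, with a list median of -0.26. Bnip3, a mitophagy receptor that is also induced by hypoxia, was at 129 CPM in WT and 57.2 and 70.5 CPM in DF508, 2.08-fold lower (edgeR adjusted p = 0.0111). Gadd45a, a growth arrest gene that p53 and stress also induce, was at 21.5 CPM in WT and 10.1 and 9.53 CPM in DF508, 2.26-fold lower at an adjusted p of 0.049. Of the 12 alternatives that test, 9 ended the call of Gadd45a, and 5 ended those of Socs3 and Bnip3. The factors Foxo1, Foxo3 and Foxo4 did not pass.

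In the other lists no gene passed. Of 9 genes of IGF availability tested, the highest by mean FPKM were the secreted proteases Htra1 (45.7, 28.0 and 54.7 CPM) and Htra3 (40.4, 41.6 and 49.5 CPM). Pappa, which encodes pappalysin, the protease that cleaves Igfbp4 and Igfbp5, was named after its values were seen. Pappa was at 37.6 CPM in WT and 64.5 and 56.5 CPM in the DF508 libraries, both above WT, with an edgeR adjusted p of 0.0784, and some of its reads also match elsewhere, so its level is uncertain.

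Among 27 genes of PI3K, AKT and mTOR, Akt1 was at 288, 306 and 289 CPM and the translation repressor Eif4ebp1 at 64.9, 52.8 and 57.6 CPM. The highest fold change of that list belonged to Inpp5d, a lipid phosphatase known mainly from blood cells and named after its values were seen, with 6 counts in WT and 12 and 47 counts in DF508 replicates 1 and 2 (edgeR adjusted p = 0.374); the myeloid sum was also highest in replicate 2, and its part was not tested. Among 10 RAS and MAP kinase genes the kinase Mapk3 had a log2 fold change of -0.04 ± 0.11 (SE). Of 9 genes of the Igf2 domain and of Igf2 mRNA binding, Plagl1, an imprinted zinc finger factor known to activate Igf2, had a log2 fold change of 0.16 ± 0.11 (SE), and Ctcf, the insulator protein of the Igf2 and H19 domain, one of 0.15 ± 0.12 (SE). Among 5 growth hormone genes the receptor Ghr, upstream of Igf1 in liver, was at 100.0, 84.9 and 75.9 CPM, below WT in both DF508 libraries (adjusted p = 0.237), and the kinase Jak2 had a log2 fold change of 0.16 ± 0.12 (SE).

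**Figure D4:**
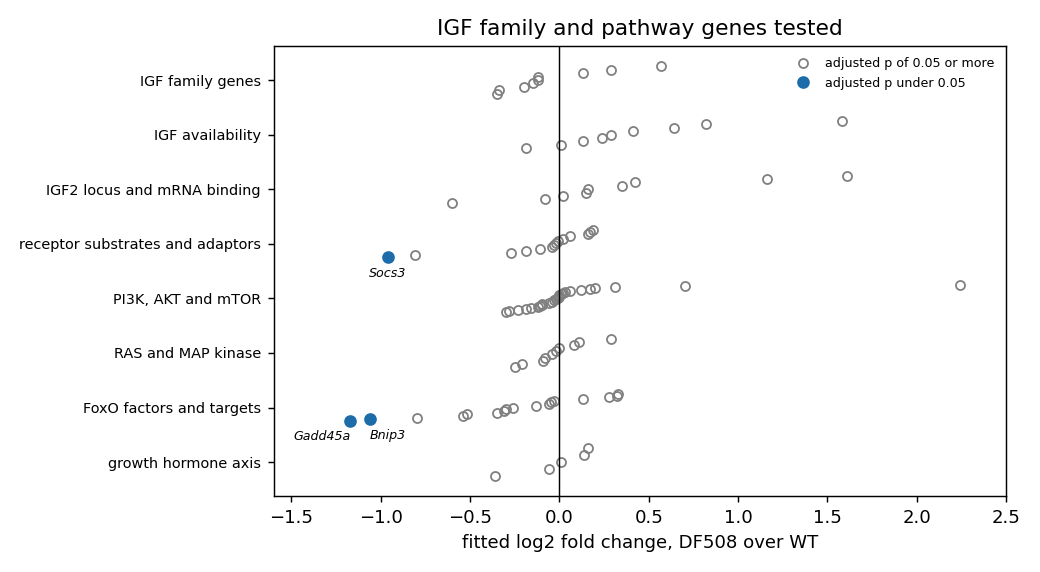
Fitted log2 fold change of DF508 over WT for each tested gene of the IGF family and of the 7 pathway lists, 1 circle for each gene, filled and named where the edgeR adjusted p was under 0.05. Socs3, Bnip3 and Gadd45a are the filled circles, all on the side of lower levels in DF508, and none of the IGF family genes is filled.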

How the data were processed

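Reads were processed by the authors with Bowtie and RSEM on mm9, per the submitters' processing notes. Their versions were not given in the sources read. Per the file headers, each library's deposited table holds expected counts (RSEM's estimates, not normalized), FPKM as deposited and gene length. A gene missing from a table was set to 0.

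Expected counts were rounded. Estimates not whole within 0.005 mark shared reads. RefSeq names (GRCm38.p6) matched 16579 of 16621 IDs; that build gave names and gene order only. CPM used library totals. The test was edgeR's quasi-likelihood test, with TMM, filterByExpr and genotype as sole term, leaving 1 residual and 7.72 prior degrees of freedom, on all 3 libraries; TMM lowered log2 differences by 0.04 to 0.05 from those of CPM. SE is the log2 fold change over the root of F. The script was tested on simulated data.

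The members and lists were chosen with earlier results of these data known. The rule named all members and, per list, up to 4 genes past the threshold by fold, or the 2 highest by FPKM. One gene under this rule is not reported here. Alternatives were other normalizations, filters, DESeq2, limma-voom, the likelihood ratio test, limma on log2(FPKM + 1) and log2(FPKM + 0.1), genes sharing no reads, and each DF508 library left out. Versions were edgeR 4.0.16, DESeq2 1.42.0 and limma 3.58.1 under R 4.3.3.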

Additional observations from a re-analysis of the deposited data

How the results depend on the processing

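The members' counts of 0 higher and 0 lower held in 11 and 12 of the 12 alternatives that test. The exception was edgeR's likelihood ratio test, which called 1 member higher, Igfbp2, and also 1 pathway gene higher. The 3 pathway genes called lower became 0 with library totals only, without a filter and in the 3 limma fits on FPKM. Over all genes the count of 179 became 0 in each of these 5, 403 with the likelihood ratio test, 63 with DESeq2's Wald test and 71 without genes sharing reads. Genes at an unadjusted p under 0.05 were then 1253 with library totals only, 1123 without a filter, and 1145, 1159 and 1615 on FPKM. The cause was not tested. Igf1 turned sign with limma-voom (log2 fold change -0.02), on log2(FPKM + 0.1) (-0.003) and without DF508 replicate 2 (-0.72). Without replicate 1 it was 0.66. The 8 other tested members kept their direction in every alternative run on them. For Igfbp4 this was narrow, with a log2 fold change of -0.02 without DF508 replicate 1, although replicate 2 was 1.02 times WT by CPM. Leaving out a DF508 library leaves no residual degrees of freedom, so it gave fold changes and no counts of calls. No paired analysis was possible with 1 WT library. Depth limits Igf2, with 4 to 7 counts.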
